A study of Mus musculus with 30 samples.

Results

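The genes described here encode proteins that the mouse prostate and the neighbouring glands secrete into semen. They are Sbp, Sbpl, Spink1, Msmb, Pbsn, Tgm4, Azgp1 and Ceacam10, a list taken by symbol, and all 8 were found among the 39179 gene identifiers of the count files, of which 37607 had a symbol. Their RNA was counted in the ventral prostate (VP) of 30 male C57BL/6 mice, which formed 6 groups of 5. From weaning, the mice ate isocaloric growth diets that differed in their fat, which came from linseed oil (LO, rich in ω-3 fatty acids), soybean oil (SO, rich in ω-6 fatty acids) or pork fat (PF, rich in saturated fatty acids). The tissue was taken after 12 or 32 weeks, from different mice. Time on the diet, the age of the mouse and any separate handling of the 2 time points cannot be told apart.

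The luminal cells that line the prostate ducts are secretory cells, and androgens keep them in that state. Each lobe of the mouse prostate has its own mixture of secreted proteins. In the VP the most abundant secretions are known to be the spermine-binding protein Sbp, a glycoprotein that binds polyamines, and Spink1, a small inhibitor of trypsin. Sbpl is the close relative of Sbp. Msmb (microseminoprotein) and Pbsn (probasin, a lipocalin whose promoter is widely used to drive transgenes in the prostate) are secreted by several lobes. Tgm4 is the transglutaminase that cross-links semen proteins into the copulatory plug, and it is best known from the anterior lobe. Azgp1 is a secreted glycoprotein linked to lipid mobilization, and Ceacam10 is a secreted member of the carcinoembryonic antigen family known from the seminal vesicle.

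On the mouse genome GRCm38, with GENCODE M21 as the annotation, Sbp (ENSMUSG00000024128) spans chr17:23941672-23945607 on the plus strand and Sbpl (ENSMUSG00000024125) chr17:23953084-23955274 on the minus strand. Their 3′ ends face each other across 7476 bases. Their coding sequences, 597 and 696 bases long, were identical at 555 of 597 aligned bases (93.0%). Of the 100-base windows in their transcripts, the length of 1 sequenced read, 146 occurred in both genes, which was 9.21% of the windows of Sbp and 18.7% of those of Sbpl. Since Sbp had many more counts than Sbpl in every mouse, the values of Sbpl are uncertain to the extent that reads of Sbp were counted on it, and this was not tested. Msmb lies at chr14:32142023-32158370, Pbsn at chrX:77837901-77853623, Tgm4 at chr9:123034726-123067561, Azgp1 at chr5:137981520-137990233 and Ceacam10 at chr7:24777206-24784657. Tgm4 overlaps Gm49323 and, on the other strand, Zdhhc3, and 19.4% of its 100-base windows occurred in these genes. Msmb overlaps Gm18909 on the other strand, and Spink1, Msmb, Pbsn, Azgp1 and Ceacam10 shared 0 windows with other transcripts.

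The bases just before the start of 3 of the genes are shown because Sbp and Sbpl are the pair whose counts changed in the same comparisons, and because Pbsn has a well-known androgen-driven promoter and no change of it passed the test. The sequences are from the RefSeq promoter table on GRCm38.p6, 250 bases each, 5′ to 3′ on the strand of the gene and ending at the base before the start nearest to the GENCODE gene start. Capitals mark the androgen response half-site (AGAACA, or TGTTCT on the other strand) and the TATA box (TATAAA, searched on the strand of the gene).
Sbp (chr17:23941428-23941677, plus strand): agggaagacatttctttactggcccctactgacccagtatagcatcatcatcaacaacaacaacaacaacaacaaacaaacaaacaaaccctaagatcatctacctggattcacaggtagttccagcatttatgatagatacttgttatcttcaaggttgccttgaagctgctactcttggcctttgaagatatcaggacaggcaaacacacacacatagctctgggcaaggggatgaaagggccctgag
Sbpl (chr17:23955274-23955523, minus strand): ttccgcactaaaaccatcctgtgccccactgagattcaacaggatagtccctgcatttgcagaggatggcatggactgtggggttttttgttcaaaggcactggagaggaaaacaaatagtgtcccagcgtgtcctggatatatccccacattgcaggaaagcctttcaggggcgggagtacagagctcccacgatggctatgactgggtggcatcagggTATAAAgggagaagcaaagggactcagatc
Pbsn (chrX:77853501-77853750, minus strand): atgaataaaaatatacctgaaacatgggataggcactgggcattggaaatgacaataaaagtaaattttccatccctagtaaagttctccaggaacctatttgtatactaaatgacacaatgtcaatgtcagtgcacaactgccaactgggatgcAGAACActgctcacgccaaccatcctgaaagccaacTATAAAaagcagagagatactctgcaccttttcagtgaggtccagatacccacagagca
The window of Sbpl held a TATA box 30 bases before the start, and that of Pbsn a half-site at 95 and a TATA box at 59 bases before it. The Sbp window held neither motif, whereas the window of another of the 3 Sbp starts in the table, 23941918, held a half-site 64 bases before that start. Among all 32851 windows of the table, each 300 bases long with 50 bases after the start, 19.0% held the half-site and 8.32% the TATA box. Of the other members in the table, Tgm4 had a TATA box 30 bases before its start, Azgp1 a half-site 14 bases after it, and Ceacam10 had 3 half-sites in each of its 2 overlapping windows. Spink1 and Msmb were not in the table.

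The libraries held from 27590631 to 41301707 counts on genes. Counting error was therefore small for all members but Ceacam10 and, in most mice, Tgm4. The tissue carried markers of luminal epithelium. The 6 luminal markers (the keratins Krt8 and Krt18 among them) summed to between 1738 and 3011 CPM (counts of a gene per 1000000 counts on all genes) over the 30 mice. These markers were not chosen to tell the lobes apart, so the lobe was not tested with them. The 9 seminal vesicle markers summed to at most 0.343 CPM, with Svs6 at 0 in every mouse. Among the libraries, SO mouse 5 at 32 weeks stood apart by a 2.68% share of Gm42418, a gene overlapping ribosomal RNA.

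Sbp and Spink1 dominated the VP transcriptome. In each of the 30 mice Sbp had the most counts of all genes and Spink1 the next most, and the order was the same per length (TPM, which are counts divided by the length of the merged exons and scaled to a sum of 1000000). Sbp took between 9.09% and 23.9% of all counts on genes, and Spink1 between 2.5% and 7.08%. Per length, the median levels over the 30 mice were 250285 TPM for Sbp, 135901 for Spink1, 10259 for Msmb, 7956 for Pbsn, 1516 for Azgp1, 432 for Sbpl, 2.61 for Ceacam10 and 2.55 for Tgm4. Within single mice Msmb was above Pbsn per length in 28 of 30, Pbsn above Azgp1 in 28, and Spink1 above Msmb, Azgp1 above Sbpl and Sbpl above Ceacam10 in all 30. Ceacam10 was above Tgm4 in 13 of 30 mice, so that these 2 genes had no fixed order.

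The 8 genes together took 26.1% ± 2.35 (SD, n = 5) of the counts in SO, 24.9% ± 4.0 in PF and 23.9% ± 3.46 in LO mice at 12 weeks. At 32 weeks the shares were 17.0% ± 0.910 in SO, 16.4% ± 3.01 in LO and 23.6% ± 5.48 in PF mice. The 5 SO mice lay between 16.3% and 18.5% at 32 weeks and between 23.0% and 28.7% at 12 weeks, and the 5 LO mice between 13.2% and 20.5% and between 21.3% and 29.2%, so that in both diets the time points did not overlap. The PF mice at 32 weeks ranged from 14.5% to 27.9% and overlapped those at 12 weeks (19.0% to 30.1%). The other 6 members added between 0.213% and 1.56% of the counts, and the share of the list was almost that of Sbp and Spink1. No test was made of this share, since the members were chosen with earlier results known.

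**Figure D1:**
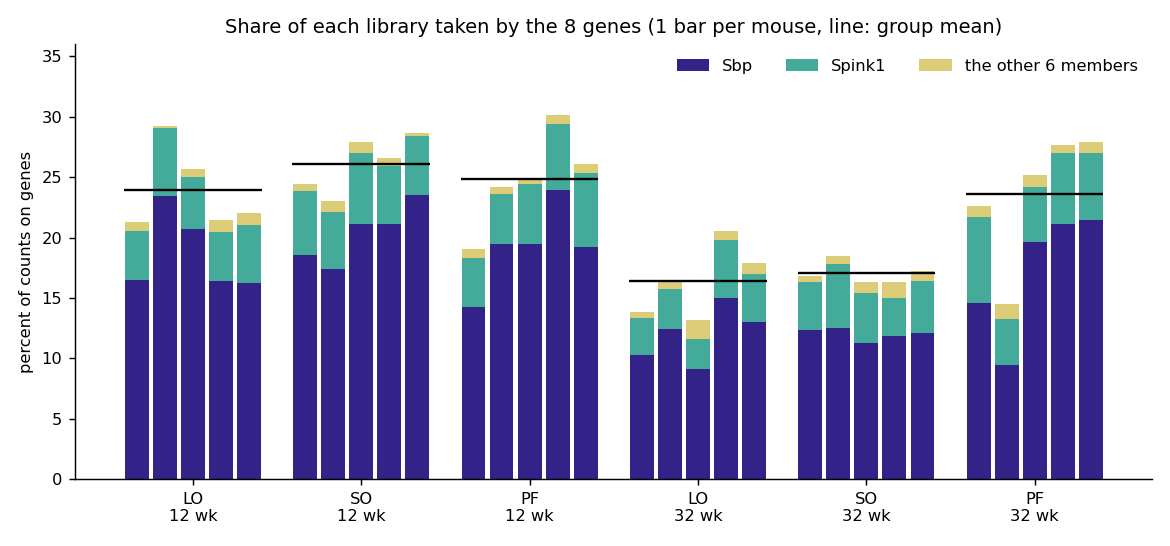
Percent of all counts on genes (vertical axis) taken by Sbp, Spink1 and the other 6 members in each of the 30 mice, 1 bar per mouse, with a line at the mean of each group of 5. Every LO and SO mouse at 32 weeks lay below every mouse of its diet at 12 weeks, and 4 of the 5 PF mice at 32 weeks lay above 22%.

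Sbp fell between 12 and 32 weeks in the mice fed LO and SO. Sbp levels in LO mice were 165238, 234611, 206997, 164207 and 162105 CPM at 12 weeks and 102986, 124474, 90948, 150351 and 130016 CPM at 32 weeks. In SO mice they were 185771, 174260, 211022, 210900 and 234977 CPM at 12 weeks and 123899, 124897, 113073, 118300 and 120810 CPM at 32 weeks. In both diets each mouse at 32 weeks was below each mouse at 12 weeks, and the 5 SO mice at 32 weeks were the most alike group, with a coefficient of variation of 3.96%. In PF mice Sbp was at 142289, 194900, 194512, 239102 and 192456 CPM at 12 weeks and at 146089, 94969, 196397, 211572 and 214092 CPM at 32 weeks. The PF groups overlapped, and PF mouse 2 at 32 weeks had a level as low as the LO mice of that time.

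In the fit over all 6 groups (edgeR's quasi-likelihood test with Benjamini-Hochberg adjustment over 16605 genes, also for the adjusted p-values that follow), the log2 fold change of Sbp from 12 to 32 weeks was −0.96 ± 0.22 (SE) in SO (adjusted p = 0.010, 1.95-fold lower) and −0.81 ± 0.22 in LO (adjusted p = 0.0410, 1.76-fold lower). In PF it was −0.17 ± 0.22 (adjusted p = 0.824), with an approximate 95% interval from −0.60 to 0.25. The fall in SO passed the threshold in every alternative run, with adjusted p-values from 0.000554 to 0.0412. The fall in LO did not pass when LO mouse 2 (adjusted p = 0.149) or 3 (0.123) at 12 weeks was left out, or LO mouse 1 (0.0863), 2 (0.0667), 3 (0.152) or 5 (0.0734) at 32 weeks.

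Sbpl fell in the same 2 comparisons. It was at 254, 317, 163, 181 and 171 CPM in LO mice at 12 weeks and at 84.9, 118, 72.4, 82.0 and 118 CPM at 32 weeks, without overlap. In SO mice it was at 111, 307, 187, 154 and 265 CPM at 12 weeks and at 53.8, 190, 84.9, 138 and 89.6 CPM at 32 weeks, and these groups overlapped. PF mice had 158, 458, 229, 261 and 291 CPM at 12 weeks and 118, 224, 282, 280 and 275 CPM at 32 weeks, also with overlap. The log2 fold change of Sbpl with time was −1.38 ± 0.33 (SE) in LO (adjusted p = 0.0243), −1.08 ± 0.33 in SO (adjusted p = 0.0481) and −0.27 ± 0.33 in PF (adjusted p = 0.817). The fall in LO did not pass without LO mouse 2 (adjusted p = 0.104) or 3 (0.0538) at 12 weeks, or LO mouse 1 (0.0591) or 3 (0.0958) at 32 weeks. The fall in SO did not pass without SO mouse 2 (0.108), 3 (0.0675), 4 (0.0599) or 5 (0.132) at 12 weeks, or SO mouse 1 (0.0903), 3 (0.124), 4 (0.0887) or 5 (0.0980) at 32 weeks. Relative to Sbp, Sbpl was a minor transcript throughout, with between 4.34 and 23.6 counts per 10000 counts of Sbp in single mice.

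With time, 2 of the 8 members (Sbp and Sbpl) fell in LO and the same 2 fell in SO, and 0 rose. Over all genes tested, 2.7% were called in LO, 0.958% lower (159 of 16605) and 1.74% higher, and 6.46% in SO, 1.22% lower (202 of 16605) and 5.25% higher. Both members were also called by DESeq2, with Azgp1 in SO as another, beside 6.09% of all genes in LO and 8.13% in SO. The groups did not overlap for Sbp and Sbpl in LO and for Sbp and Azgp1 in SO, beside 4.25% and 7.43% of all genes. In PF 0 members and 0.0301% of all genes (5) were called, 0.0181% higher and 0.012% lower, with 0 members and 1696 genes at an unadjusted p under 0.05. DESeq2 called 0 members and 0.291% of all genes in PF, and the groups of 0 members and 1.55% of all genes did not overlap. The median log2 fold change over the 8 members was −0.44 in LO, −0.44 in SO and 0.17 in PF, beside −0.01, 0.00 and 0.00 over all genes. Scaling by total counts instead of TMM moved the median of all genes to 0.16 in LO and 0.19 in SO, and the calls over all genes then split into 1323 higher and 52 lower in LO and 2770 higher and 32 lower in SO, in place of 289 and 159, and 871 and 202. Under that scaling Sbp still fell, with a log2 fold change of −0.64 in LO and −0.76 in SO, as did Sbpl in LO (−1.19), whereas Sbpl in SO had an adjusted p of 0.0546. Leaving the 8 genes out of the computation of the scaling factors gave −0.82 and −0.98 for Sbp in LO and SO.

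**Figure D2:**
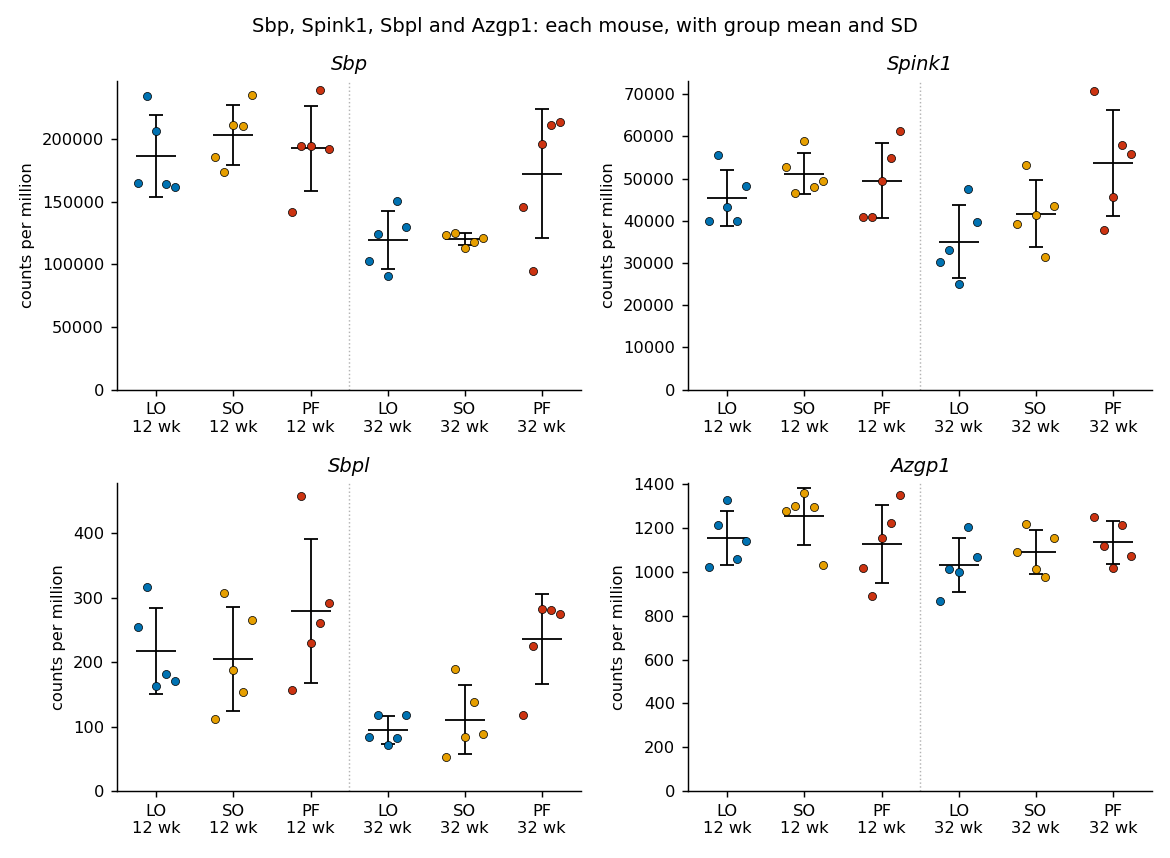
Level in CPM (vertical axis, from 0) of Sbp, Spink1, Sbpl and Azgp1 in each of the 5 mice per group, with the group mean and SD. Sbp in LO and SO mice lay between 162105 and 234977 CPM at 12 weeks and between 90948 and 150351 CPM at 32 weeks.

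No change of Spink1 with time passed the test. In LO mice its levels were 39860, 55699, 43182, 39963 and 48319 CPM at 12 weeks and 30132, 33035, 25038, 47488 and 39628 CPM at 32 weeks. In SO mice the means were 51164 ± 4905 (SD, n = 5) and 41705 ± 7927 CPM, and in PF mice 49541 ± 8859 and 53623 ± 12557 CPM. The 2 times overlapped in each diet. The log2 fold changes of −0.54 ± 0.20 (SE) in LO and −0.49 ± 0.20 in SO did not pass the test (adjusted p = 0.128 and 0.158), nor did the 0.09 ± 0.20 of PF (adjusted p = 0.919). The value in LO passed only when LO mouse 4 at 32 weeks was left out (adjusted p = 0.0421). The ratio of Sbp to Spink1 counts was 4.0 ± 0.55 (SD, n = 5) in SO mice at 12 weeks and 2.96 ± 0.54 at 32 weeks, 4.12 ± 0.51 and 3.45 ± 0.25 in LO mice, and 3.93 ± 0.65 and 3.27 ± 0.95 in PF mice.

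Azgp1 was the steadiest member, between 866 and 1358 CPM over the 30 mice, a 1.57-fold range. Its means were 1151 ± 123 (SD, n = 5) CPM at 12 and 1029 ± 122 CPM at 32 weeks in LO, 1251 ± 128 and 1090 ± 99.7 CPM in SO, and 1126 ± 179 and 1133 ± 97.4 CPM in PF mice. On the TMM scale the SO groups did not overlap. The log2 fold change of −0.39 ± 0.13 (SE) in SO did not pass (adjusted p = 0.0683), but passed with DESeq2 (adjusted p = 0.0375) and with the SO mice alone in the fit (adjusted p = 0.0380). It did not pass in the other 6 of 8 such settings, over which the estimate ran from −0.42 to −0.20 (adjusted p up to 0.180). With 1 mouse left out it did not pass in any of 10 runs (adjusted p = 0.066 to 0.188). In LO the log2 fold change was −0.34 ± 0.13 (adjusted p = 0.137).

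At 32 weeks the PF mice had higher mean levels of Sbp, Sbpl and Spink1 than the mice on either oil, but the differences did not pass the test over all genes. For Sbpl, the log2 fold change was 1.49 ± 0.31 (SE) against LO (adjusted p = 0.267) and 1.24 ± 0.31 against SO (adjusted p = 0.278), both by edgeR over 16218 genes. The lowest PF mouse was above the highest LO mouse by 0.26 CPM (118.13 against 117.87), and all 5 PF mice were above 3 of the 5 SO mice. For Sbp it was 0.72 ± 0.25 against LO and 0.70 ± 0.25 against SO (adjusted p = 0.447 and 0.390), and for Spink1 0.80 ± 0.24 and 0.53 ± 0.24 (adjusted p = 0.361 and 0.452). Azgp1 gave 0.32 ± 0.12 against LO and 0.21 ± 0.12 against SO (adjusted p = 0.487 and 0.542). The 2 comparisons share the PF mice. Markers of other cells also differed in level at 32 weeks, though edgeR called 0 of them and 0.0% of all genes. The summed 6 adipocyte markers were at 54.2 to 808 CPM in PF, 61.1 to 344 CPM in LO and 30.5 to 247 CPM in SO mice. The median of their log2 fold changes was 1.34 in PF against LO and 1.87 in PF against SO. The 5 red blood cell markers summed to 39.2 to 462, 50.0 to 162 and 28.7 to 83.2 CPM, with medians of 1.43 and 2.48, and the median of the latter with time in PF was 2.04. Medians went the other way, against LO and SO in that order, for leukocyte (−0.22 and −0.17) and basal markers (−0.58 and −0.19). The same held for proximal luminal (−0.50 and −0.57) and smooth muscle markers (−0.05 and −0.10). The part of other cells in the values of the members was not tested.

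The edgeR test called 0 members and 0.0% of all genes (0 of 16218) in each of the 3 comparisons at 32 weeks. At an unadjusted p under 0.05 there were 4 members and 1748 genes in PF against SO, 4 members and 1394 genes in PF against LO, and 1 member and 565 genes in LO against SO. DESeq2 called 1 member, Sbpl, in PF against SO (adjusted p = 0.0184) and in PF against LO (adjusted p = 0.00148), beside 0.716% and 0.419% of all genes. In LO against SO it called 0 members and 0.0234% of all genes. In PF against LO the groups did not overlap for Sbpl, and they did not overlap for 1.12% of all genes. The median log2 fold change over the 8 members was 0.47 in PF against SO and 0.30 in PF against LO, with all genes at 0.00 and 0.01. Between the 2 oils, the log2 fold changes in LO against SO were −0.02 ± 0.25 for Sbp (approximate 95% interval −0.51 to 0.47) and −0.25 ± 0.31 for Sbpl (−0.85 to 0.35).

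At 12 weeks no difference of a member between diets passed the test. The edgeR test called 0 members and 0.0% of all genes (0 of 15873) in each comparison, 0 members had an unadjusted p under 0.05, and the numbers of genes at that level were 1269 in PF against SO, 1466 in PF against LO and 679 in LO against SO. DESeq2 called 0 members, beside 1.32%, 0.522% and 0.0% of all genes in the same order. The groups of 0 members did not overlap, beside 1.57%, 1.55% and 0.777% of all genes. The estimates of Sbp were between −0.17 and 0.07 with an SE of 0.18, and those of Spink1 between −0.22 and 0.15 with an SE of 0.16. Sbpl had the highest mean in PF mice (279 ± 111 CPM, SD, n = 5), where mouse 2 reached 458 CPM, beside 217 ± 66.3 in LO and 205 ± 80.3 in SO mice.

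Whether the difference between diets itself changed from 12 to 32 weeks was tested as an interaction over the 30 mice. The PF against SO difference of Sbp grew by 0.79 ± 0.31 (SE) on the log2 scale (adjusted p = 0.379, unadjusted p = 0.0162), and that of PF against LO by 0.64 ± 0.31 (adjusted p = 0.638). For Sbpl the values were 0.80 ± 0.46 and 1.11 ± 0.46 (adjusted p = 0.631 and 0.578), and for Spink1 0.58 ± 0.29 and 0.63 ± 0.29 (adjusted p = 0.533 and 0.625). The edgeR test called 0 members and 0.0% of all genes in each of the 3 interactions, with 1, 3 and 0 members and 1576, 1294 and 553 genes at an unadjusted p under 0.05 for PF with SO, PF with LO and LO with SO. DESeq2 called 0 members, beside 0.246%, 0.0662% and 0.0% of all genes. The falls of Sbp and Sbpl in LO and SO are thus not shown to differ from the change in PF.

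**Figure D3:**
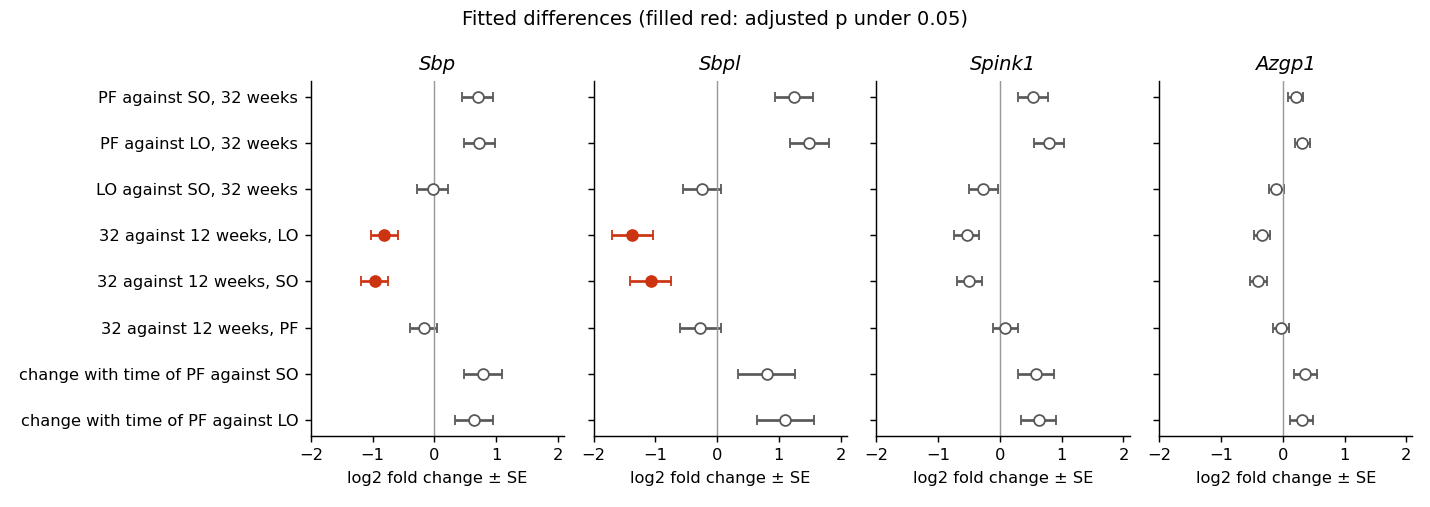
Log2 fold changes with SE (horizontal axis) of Sbp, Sbpl, Spink1 and Azgp1 in the comparisons at 32 weeks, between 12 and 32 weeks, and in the interactions with PF, with filled red points at an adjusted p under 0.05. Only Sbp and Sbpl in LO and SO between 12 and 32 weeks are filled, and the PF points of that comparison lie within 1 SE of 0.

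Msmb and Pbsn varied together from mouse to mouse. Msmb was at 483 CPM in LO mouse 2 and 577 CPM in SO mouse 5 at 12 weeks, while the other 28 mice lay between 1871 and 5320 CPM. Pbsn was at 110 and 309 CPM in the same mice and between 1851 and 8911 CPM in the other 28. Both genes were highest in LO mouse 3 at 32 weeks (5320 and 8911 CPM), followed by SO mouse 4 and PF mouse 2 of that time. After subtraction of the group means, the log2 CPM values of the 2 genes had a Pearson r of 0.97 and a Spearman rho of 0.91 over the 30 mice, the highest of the 28 pairs of members, given as a description. The lowest adjusted p of Msmb was 0.844 among the 6 diet comparisons and 0.862 among the 3 time comparisons, and those of Pbsn were 0.701 and 0.618. In all 12 comparisons the estimate of Msmb was smaller than its own SE. The largest estimate of Pbsn was the 0.87 ± 0.56 (SE) between 12 and 32 weeks in PF, where the mean was 2540 ± 453 (SD, n = 5) and then 4794 ± 1293 CPM. These groups nearly separated, with a highest mouse of 3037 CPM at 12 weeks and a lowest of 2896 CPM at 32 weeks. Mean Pbsn was also higher at 32 weeks in LO (4472 ± 2648 against 2841 ± 1714 CPM) and SO mice (4011 ± 1956 against 2563 ± 1544 CPM), where the groups overlapped. The ratio of Pbsn to Msmb counts was 0.899 to 1.16 at 12 weeks and 1.24 to 1.87 at 32 weeks in PF mice, without overlap. In LO mice it was 0.228 to 1.12 and 0.938 to 1.67, and in SO mice 0.535 to 1.18 and 1.02 to 1.47, with overlap in both. The change of this ratio was not tested.

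By the measure of likeness used for all members (Pearson r of TMM-scaled log2 CPM after subtraction of the group means, over the 30 mice and 9191 genes with at least 10 CPM on average), the genes most like Msmb were Defb1 (0.99), Defb50 (0.97) and Rnase1 (0.97), and those most like Pbsn were Rnase1 (0.99), Defb1 (0.98) and Slc30a2 (0.97). Defb1 and Defb50 encode defensins, Rnase1 a secreted ribonuclease and Slc30a2 a zinc transporter. Defb50 was itself abundant, at 4705 CPM on average. It was at 1086 CPM in LO mouse 2 and 1169 CPM in SO mouse 5 at 12 weeks, and between 3124 and 9594 CPM in the other 28 mice. Rnase1 had 4.69 and 10.1 CPM in these mice, and between 55.7 and 310 CPM in the others. On log2 CPM without TMM these values changed by less than 0.01. For Sbp the measure depended on the scaling. The genes ranked most like it were Abhd3 (0.89), Diablo (0.88) and Dlg3 (0.86), but without TMM the r was 0.73, −0.15 and 0.47, and the within-group deviations of Sbp had an r of −0.96 with those of the log2 TMM factor (factors 0.889 to 1.18). With TMM, those most like Spink1 were Cutal (0.88), Spin2e (0.88) and Hacd2 (0.87), those most like Sbpl were Rnft1 (0.80), Hps5 (0.77) and Mtmr2 (0.77), and those most like Azgp1 were Pgrmc2 (0.88), Csta1 (0.86) and Sptlc2 (0.86). Without TMM these r lay between 0.65 and 0.81. Among the members, the r of Spink1 was 0.83 with Azgp1 (0.68 without TMM) and 0.73 with Sbp (0.57 without TMM), that of Sbp with Sbpl was 0.43 (0.33) and that of Sbp with Msmb −0.44 (−0.50). The points share the scaling of their libraries, of which Sbp alone is a large part.

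**Figure D4:**
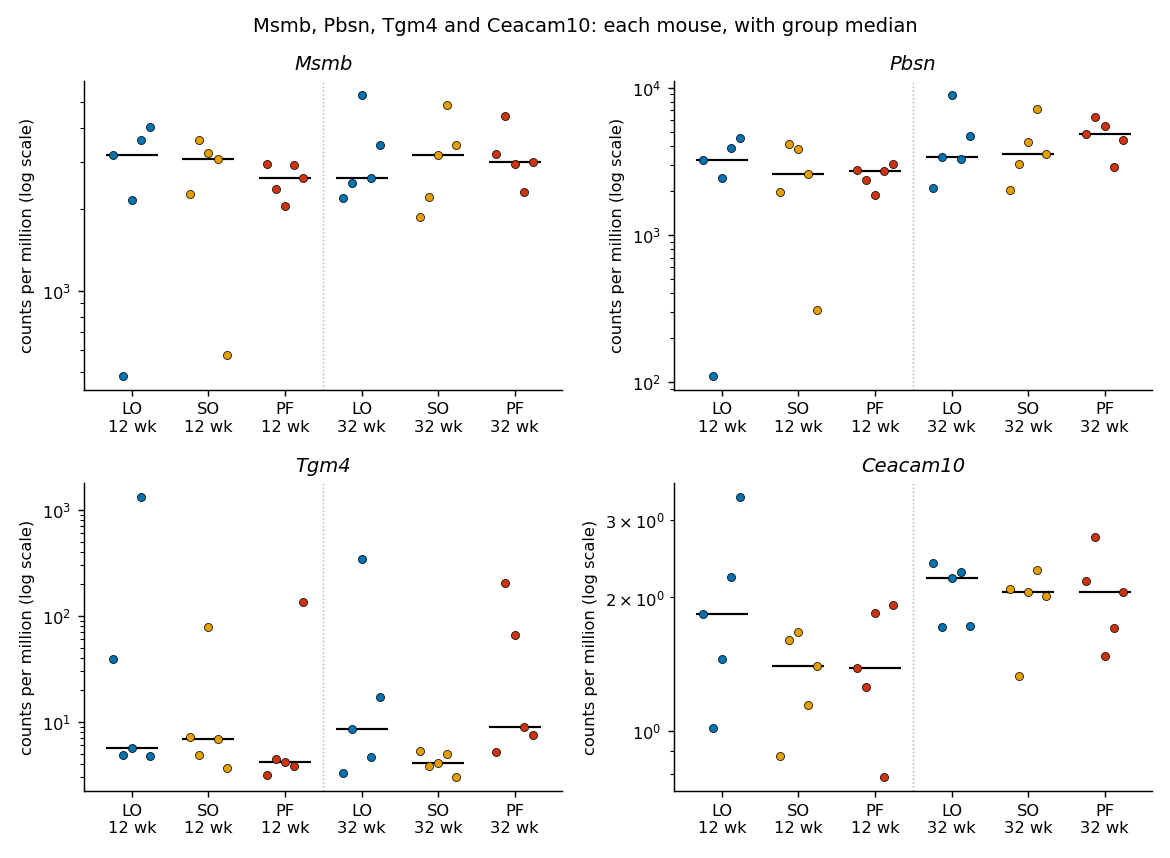
Level in CPM (vertical axes, log scale) of Msmb, Pbsn, Tgm4 and Ceacam10 in each of the 5 mice per group, with a line at the group median. LO mouse 2 and SO mouse 5 at 12 weeks are the lowest points for Msmb and Pbsn, and Tgm4 reaches 1331 CPM in LO mouse 4 at 12 weeks.

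Tgm4 was low in most mice and high in a few. It lay under 10 CPM in 22 of the 30 mice, with a lowest value of 2.99 CPM. The highest values were 1331 CPM in LO mouse 4 at 12 weeks, 341 CPM in LO mouse 3 at 32 weeks, 204 CPM in PF mouse 2 at 32 weeks, 135 CPM in PF mouse 5 at 12 weeks, 79.0 CPM in SO mouse 3 at 12 weeks, 65.6 CPM in PF mouse 3 at 32 weeks and 38.8 CPM in LO mouse 1 at 12 weeks. These 7 mice came from 5 of the 6 groups, and the SO mice at 32 weeks had between 2.99 and 5.36 CPM. The 7 mice were also the 7 with the most counts on 9530053A07Rik and on Tcaf3, the genes most like Tgm4 (r = 0.95 for both), followed by Col4a6 (r = 0.74). In LO mouse 4 at 12 weeks 9530053A07Rik reached 2849 CPM and Tcaf3 389 CPM, while in the 23 mice outside the 7 they had at most 9.996 and 3.84 CPM, down to 0 for both. Since Tgm4 is best known from the anterior lobe, the part of tissue from another lobe in these values was not tested. The 9 seminal vesicle markers were at or near 0 in all mice.

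No comparison of Tgm4 passed the test with edgeR, nor with DESeq2 where it gave an adjusted p, which it did not at 12 weeks. Its largest estimate was 4.02 ± 1.34 (SE) in LO against SO at 32 weeks (adjusted p = 0.9997). With 1 mouse left out, this estimate ran from 0.97 to 4.33. LO mouse 3 of that time had 341 CPM, and the other LO mice had 3.30 to 17.1 CPM. The next largest estimate was 3.79 ± 1.33 in PF against SO at 32 weeks (adjusted p = 0.385). There the groups did not overlap on the TMM scale, beside 2.16% of all genes that did not. In CPM without TMM they did overlap, with PF mouse 1 at 5.23 CPM and SO mouse 1 at 5.36 CPM. Among estimates at least as large as their SE, LO mouse 4 at 12 weeks turned the sign of 4 when left out. These were LO against SO (3.62 with it, −0.70 without) and PF against LO at 12 weeks (−3.08 and 1.24), the change with time in LO (−2.08 and 2.26) and the growth of the PF against LO difference (2.84 and −1.48).

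**Figure D5:**
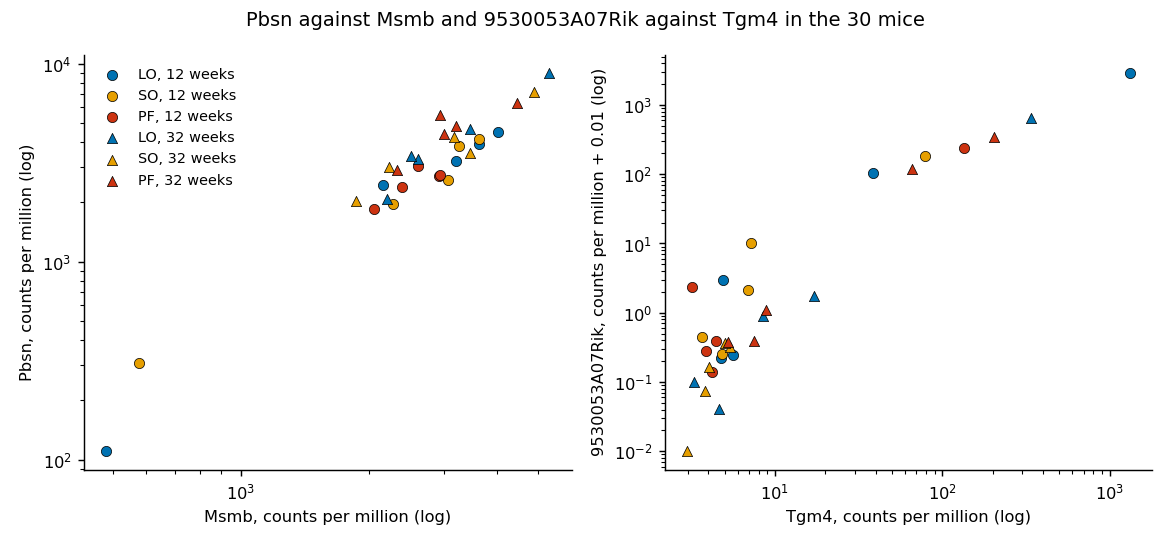
Pbsn against Msmb (left) and 9530053A07Rik against Tgm4 (right) in CPM on log axes, 1 point per mouse, with 0.01 added to 9530053A07Rik so that a level of 0 can be drawn. LO mouse 2 and SO mouse 5 at 12 weeks stand at the lower left of the left panel, and the 7 mice with the most Tgm4 stand at the upper right of the right panel.

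Ceacam10 was near the limit of detection, between 0.785 and 3.38 CPM. Its estimates did not pass in any comparison, with the lowest adjusted p at 0.464 in SO between 12 and 32 weeks (0.35 ± 0.25, SE). In PF the estimate for the same times was 0.46 ± 0.25 (adjusted p = 0.534). The genes most like it were Bhlhb9 (r = 0.64), Tspan2 (0.59) and Mmp7 (0.59).

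Other genes of prostate secretion were taken from lists that did not contain the 8 members. Of the 24 other secreted proteins of the male tract, 18 were tested over both time points. Acpp, the prostatic acid phosphatase, fell in LO from 26.4 ± 4.51 (SD, n = 5) to 16.5 ± 2.20 CPM (log2 fold change −0.85 ± 0.19, SE, adjusted p = 0.0180). In SO, Clu (clusterin, a secreted chaperone) rose from 289 ± 35.1 to 717 ± 167 CPM (1.12 ± 0.35, adjusted p = 0.0497) and Pigr, the receptor that carries immunoglobulins across epithelia, from 2465 ± 603 to 4460 ± 738 CPM (0.66 ± 0.19, adjusted p = 0.0391). In PF 0 were called. The median log2 fold change of the list was 0.17, 0.23 and 0.19 in LO, SO and PF.

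Among 15 genes of androgen response and prostate lineage, 1 was called with time. It was Ndrg1, an androgen-regulated gene, which rose in LO from 17.4 ± 3.19 (SD, n = 5) to 27.4 ± 6.41 CPM (log2 fold change 0.48 ± 0.13, SE, adjusted p = 0.0376). Fkbp5, an androgen-regulated gene with the most counts of the list, had log2 fold changes of −0.42 ± 0.16 (SE) in LO (adjusted p = 0.119), −0.19 ± 0.16 in SO and 0.17 ± 0.16 in PF.

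Of the 25 genes of the secretory machinery, which move secreted proteins through the endoplasmic reticulum, 4 fell in SO, 1 fell in LO and 0 rose. Over all genes tested, 1.22% were called lower in SO and 0.958% in LO. The 4 in SO were Ssr4 (log2 fold change −0.38 ± 0.08, SE, adjusted p = 0.00503), Kdelr3 (−0.49 ± 0.13, 0.0231), Kdelr2 (−0.30 ± 0.09, 0.0350) and Spcs2 (−0.28 ± 0.07, 0.0188), where Ssr4 and Spcs2 belong to the translocation and signal peptidase complexes and the KDEL receptors return proteins to the endoplasmic reticulum. The gene in LO was Ssr3 (−0.22 ± 0.06, adjusted p = 0.0493). In CPM without TMM, the means in SO went from 316 to 278 for Ssr4 and from 38.0 to 31.2 for Kdelr3. They went from 82.2 to 76.4 for Kdelr2 and from 266 to 251 for Spcs2, and in LO from 386 to 372 for Ssr3. Changes without TMM were thus smaller than these fold changes. On the TMM scale, the median of the list was −0.22 in LO, −0.27 in SO and −0.03 in PF. Hspa5, a chaperone with the most counts of the list, had −0.38 ± 0.13 in LO and SO (adjusted p = 0.0839 and 0.0641) and −0.20 ± 0.13 in PF. Of the 36 sequence relatives found in the files, 14 were tested, and Spink5, an abundant relative of Spink1, rose in LO from 3626 ± 1087 (SD, n = 5) to 7464 ± 1601 CPM (log2 fold change 0.86 ± 0.22, adjusted p = 0.0284) and in SO from 3029 ± 236 to 5743 ± 1049 CPM (0.72 ± 0.22, adjusted p = 0.0430). In the 6 diet comparisons and the 3 interactions edgeR called 0.0% of all genes, and thus 0 genes of these 4 lists.

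Markers of other cells moved in the comparisons in which Sbp and Sbpl fell. In SO, 6 of 7 leukocyte markers rose with time, and their summed level was between 140 and 184 CPM at 12 weeks and between 248 and 726 CPM at 32 weeks. Ptprc, the pan-leukocyte gene, rose by 1.85 ± 0.37 (SE) on the log2 scale there (adjusted p = 0.00501). In LO, 0 of 7 were called, with sums of 114 to 319 and 202 to 934 CPM, and in PF 0 of 7, with 180 to 481 and 240 to 613 CPM. Of the 5 basal epithelium markers 3 rose in LO (Krt15, Krt5 and Trp63) and 2 in SO (Krt15 and Trp63), with summed levels of 64.4 to 129 and 135 to 278 CPM in LO, 70.0 to 110 and 118 to 178 CPM in SO, and 83.8 to 138 and 95.3 to 144 CPM in PF. Of 5 markers of proximal luminal cells, 1 (Ly6a) rose in SO. The 6 luminal markers, 6 smooth muscle, 6 fibroblast, 5 endothelial, 6 adipocyte and 5 red blood cell markers gave 0 calls with time. The median log2 fold change of the luminal markers with time was −0.003 in LO, −0.10 in SO and −0.05 in PF. The part of other cells, or of tissue from another lobe, in the falls of Sbp and Sbpl was not tested. In these bulk samples fewer luminal cells and less RNA of a gene per cell cannot be told apart.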

How the data were processed

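RNA from the ventral prostate of 30 mice was sequenced as paired 100-base reads from TruSeq stranded mRNA libraries. The submitters' processing notes name TopHat, HTSeq, DESeq2 and the build GRCm38.p6, while the annotation release and the strand setting of the counting are not given in the sources used here. The authors deposited raw counts of read pairs per Ensembl gene, 1 file per mouse, not normalized. Pairs set aside in the counting (no gene, ambiguous, or several places) made up 23.7% to 32.2% of each file and were left out of library sizes. Their multiply aligned part was 16.0% to 20.3%, which can lower the counts of genes with close copies.

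Groups and replicate numbers came from the sample titles. No 2 mice of a group differed by sampling noise only (lowest chi-square per degree of freedom 22.7 in 60 pairs). Counts were filtered with edgeR's filterByExpr, scaled by TMM and tested in R 4.3.3 by edgeR 4.0.16 (quasi-likelihood, either direction), with Benjamini-Hochberg adjustment over all genes tested and a threshold of 0.05. Each time point had its own fit of 3 diets for the diet comparisons, and times and interactions with all 6 groups in one fit. SEs were derived from the F statistic. CPM in the text are relative to all counts on genes, without TMM, log2 CPM had a prior count of 2, and values per length used the merged exons of GENCODE M21. Scripts were tested on simulated data. The labels do not say how mice were housed or extracted. The p-values weigh differences against the spread between these mice and take the mice as independent. Any cage or extraction batch shared within a group was not accounted for.

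The members and the lists were chosen with earlier results of these data known. Named were the 8 members in every comparison (as counts or ranges where an estimate was below its SE), the 3 genes most like each, and from each list up to 4 called genes per comparison by size of change, or its most abundant genes. Fkbp5 and Hspa5 were also named, after their values were seen. Some genes of the lists are not reported here. Alternatives were DESeq2 1.42.0, its size factors (RLE), total counts, scaling without the members, no filter, other sets of groups in the fit, the replicate number as a block, and each mouse left out. Leaving out SO mouse 5 and LO mouse 1 at 32 weeks together, and the likeness of genes without TMM, were added after the data were seen.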

Additional observations from a re-analysis of the deposited data

Results flagged for a closer look

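A mouse far from the other 4 of its group, by Dixon's criterion for 5 values, was found in 5 of 54 sets of values (8 members and their summed share in 6 groups). Chance alone flags about 1 in 20 where values are independent and normally distributed, which skewed CPM such as those of Tgm4 are not. For Tgm4 these were the highest mice of 4 groups: LO mouse 4 at 12 weeks with 1331 CPM (the others 4.73 to 38.8 CPM), PF mouse 5 at 12 weeks with 135 CPM (the others 3.18 to 4.42 CPM), SO mouse 3 at 12 weeks with 79.0 CPM (the others 3.66 to 7.18 CPM) and LO mouse 3 at 32 weeks with 341 CPM (the others 3.30 to 17.1 CPM). For Azgp1 it was the lowest SO mouse at 12 weeks, mouse 5, with 1030 CPM (the others 1274 to 1358 CPM), which also had the lowest Msmb and Pbsn of its group. No interaction of a member passed the test.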

How the results depend on the processing

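The fall of Sbp in SO with time passed under every alternative. Settings other than single mice left out were followed for the 47 estimates of members at least as large as their SE. Of the resulting 389 values, 377 kept their direction and side of the threshold, with 0 turned, 8 no longer called and 4 newly called. Estimates smaller than their SE were left out, so these numbers do not cover them. The calls lost were Sbp in LO without a filter (adjusted p = 0.0977), with only the groups compared (0.0987) and without SO mouse 5 and LO mouse 1 at 32 weeks (0.0970), Sbpl in LO under the last setting (0.0670), and Sbpl in SO under total counts (0.0546), no filter (0.0590), only the groups compared (0.0994) and the last setting (0.112). The cause was not tested.

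DESeq2 gave other numbers of genes, 225 in PF against SO and 76 in PF against LO at 12 weeks, 109 in PF against SO, 72 in PF against LO and 6 in LO against SO at 32 weeks, 1059 with time in LO and 52 in PF, and 44 and 5 in the interactions of PF with SO and LO. Total counts gave 1 gene in PF against LO at both times, 1375 with time in LO, 2802 in SO and 0 in PF. All 6 groups in one fit gave 2 in PF against LO at both times, and only the 2 diets compared gave 1 in LO against SO at 32 weeks. With time, only the groups compared gave 57 in LO and 0 in PF, no filter 0 in PF, and the 2 mice left out together 232 in LO and 0 in PF. With 1 mouse left out, the counts with time ran from 47 (LO mouse 3 at 12 weeks) to 1043 (LO mouse 4 at 32 weeks) in LO, from 226 (SO mouse 4 at 32 weeks) to 1556 (SO mouse 1 at 32 weeks) in SO and from 0 to 7 in PF. They ran from 0 to 131 in PF against SO at 12 weeks (131 without PF mouse 5), from 0 to 1 in PF against LO at 12 weeks and PF against SO at 32 weeks, and from 0 to 3 in the interaction of PF and SO. Among estimates of Tgm4 at least as large as their SE, the sign turned only without LO mouse 4 at 12 weeks. The ranges were −6.06 to 1.24 in PF against LO and −0.70 to 5.50 in LO against SO at 12 weeks. For the change with time in LO the range was −5.12 to 2.26, and for the interaction of PF and LO −1.48 to 5.91. Smaller estimates of Tgm4 were not followed in this way. The summed share in SO mice at 32 weeks was 18.0% of the counts without mitochondrially encoded genes.

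Same-numbered mice of different groups correlated at 0.122 on average in their deviations from the group means (lowest −0.40, highest 0.55), and mice with different numbers at −0.029. Since not every pair was above 0.1 and the labels name no shared batch, the numbers were not taken to pair the mice. Whether mice of the same number shared a batch was not tested. With the replicate number as a block, edgeR called 668 genes with time in LO, 1224 in SO, 6 in PF and 0 elsewhere, and the 4 calls of members stayed. Ceacam10 and, in most mice, Tgm4 had the lowest counts of the members and thus the largest counting error. Without TMM, the r of Sbp with Diablo turned from 0.88 to −0.15.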
